A study of Homo sapiens with 14 samples.

Results

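The intervals listed for BCL6 came from DLD-1 cells with the activator plasmid and a RAC inhibitor. They were set against those listed for STAT5 in cells with the activator plasmid and vehicle. None of the 14 libraries of the series is labelled as input, so a listed interval is not shown to be bound. DLD-1 is an established human colorectal adenocarcinoma line, and the intervals come from chromatin immunoprecipitation with sequencing. Members were taken from the authors' lists of intervals near gene starts, by Ensembl gene ID and by an overlap of at least 1 bp. Of 44178 gene IDs in the 4 separate lists of the series, 1693 had an inhibitor BCL6 interval, 12643 had an activator STAT5 interval and 638 had both. The other 1055 inhibitor BCL6 genes were in that list only. The 2 lists hold 1652 and 14047 distinct intervals, out of 152412 in the series.

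The inhibitor BCL6 group has 3 libraries (numbers 6, 12 and 14), from cells transfected with pEGFP-C1199Tiam1, which codes for a TIAM1 fragment, and treated with 20 microM EHT 1864 for 16 h. The activator STAT5 group has 2 libraries (numbers 3 and 9), from cells with the same plasmid and vehicle. Chromatin was taken 20 h after transfection in both groups. The control groups, used here only as background, carried the empty vector, with 2 libraries for each antibody. Antibody and treatment both differ between the inhibitor BCL6 and the activator STAT5 list, so their parts in any difference cannot be told apart. Libraries of a group are not said to be separate cultures, and the spread among them may therefore be only technical.

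TIAM1 is an exchange factor that loads the small GTPase RAC1 with GTP, PAK1 is a kinase that active RAC1 switches on, and EHT 1864 blocks RAC proteins. STAT5 is a transcription factor that JAK kinases activate downstream of cytokine receptors. BCL6 is a zinc finger repressor best known from germinal centre B cells, and its DNA element resembles that of STAT proteins, so that both factors can occupy the same sites in some cells.

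Sequences at genes of both lists and at genes of the inhibitor BCL6 list only are shown first. The widest overlap of all was at the microRNA gene MIR581, and MIR583 and MIR760 were also in both lists. MIR31, MIR192, MIR301A and the neighbouring MIR181A2 and MIR181B2 were in the inhibitor BCL6 list only. Their mature sequences, from RefSeq (GRCh38.p14), follow 5′ to 3′ with the seed, bases 2 to 8, in capitals, since the seed groups microRNAs by target.
hsa-miR-581: uCUUGUGUucucuagaucagu
hsa-miR-583: cAAAGAGGaaggucccauuac
hsa-miR-760: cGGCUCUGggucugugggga
hsa-miR-31-5p: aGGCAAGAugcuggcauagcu
hsa-miR-192-5p: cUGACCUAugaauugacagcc
hsa-miR-301a-3p: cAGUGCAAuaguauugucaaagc
hsa-miR-181a-5p: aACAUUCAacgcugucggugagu
hsa-miR-181b-5p: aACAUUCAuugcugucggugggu

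Of these, miR-181a-5p and miR-181b-5p share the seed ACAUUCA, and their genes were listed for the same inhibitor BCL6 interval of chromosome 9 (127453383 to 127453608, GRCh37 as in all file coordinates here). That interval had values of 2, 3 and 5 in libraries 6, 12 and 14. The values are the authors' whole numbers per interval and library, read here as counts of reads. Intervals of MIR581 (chr5:53246740-53247011 for inhibitor BCL6 and chr5:53246773-53247100 for activator STAT5) shared 239 bp and had midpoints 553.5 and 492.5 bp past the gene start. They had 4, 4 and 4 for inhibitor BCL6 and 3 and 4 for activator STAT5. None of the 5 libraries was at 2 there, the lowest value a treated list holds. At MIR583 the gap between the intervals was 65 bp, with values of 2, 2 and 2 for inhibitor BCL6 and 5 and 2 for activator STAT5. At MIR760 it was 1379 bp, with 2, 3 and 2 for inhibitor BCL6 and 2 and 4 for activator STAT5. In all, 13 microRNA genes were in the inhibitor BCL6 list, 4 of them in both lists. That is 2.38% of 546 microRNA genes, beside 3.83% of all genes, and 30.8% of the 13, beside 37.7% of all inhibitor BCL6 genes. The genes of miR-31 and of miR-192, a microRNA abundant in gut epithelium, stood among the 9 without an activator STAT5 interval.

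Promoters from RefSeq, 250 bases before to 50 after each gene's start, are printed for 3 of the 4 genes in both lists with an inhibitor BCL6 interval in that window of the files' gene start and the STAT-type palindrome TTCNNNGAA, shown in capitals. The fourth is HLA-DQB2, with a match at -142.
IL1F10: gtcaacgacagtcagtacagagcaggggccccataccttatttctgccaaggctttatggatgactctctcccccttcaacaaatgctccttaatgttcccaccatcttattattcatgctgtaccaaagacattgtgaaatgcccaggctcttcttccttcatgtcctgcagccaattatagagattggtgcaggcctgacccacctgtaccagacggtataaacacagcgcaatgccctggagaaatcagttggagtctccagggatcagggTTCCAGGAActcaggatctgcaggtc
CEP162: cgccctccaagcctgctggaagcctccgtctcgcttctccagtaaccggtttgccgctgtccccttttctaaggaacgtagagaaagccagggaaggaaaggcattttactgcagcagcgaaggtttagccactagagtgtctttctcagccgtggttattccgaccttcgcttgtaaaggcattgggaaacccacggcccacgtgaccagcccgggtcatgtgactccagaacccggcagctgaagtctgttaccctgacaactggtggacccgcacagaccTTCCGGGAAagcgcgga
BANF2: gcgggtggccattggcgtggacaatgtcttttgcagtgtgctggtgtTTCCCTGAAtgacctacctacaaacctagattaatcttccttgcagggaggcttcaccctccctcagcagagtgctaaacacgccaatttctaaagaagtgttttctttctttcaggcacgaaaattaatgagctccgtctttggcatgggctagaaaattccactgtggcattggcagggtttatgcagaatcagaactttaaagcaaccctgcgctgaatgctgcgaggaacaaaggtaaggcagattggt

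These are chr2:113067720-113068019 on the plus strand, chr6:84227594-84227893 on the minus strand and chr20:17693422-17693721 on the plus strand, all of GRCh38.p14. The match began 24 bases after the RefSeq start at IL1F10, a cytokine gene of the interleukin-1 family, 33 bases after it at CEP162, a centriole protein gene, and at -203 at BANF2. The ones at IL1F10 and CEP162 also fit the tighter form TTCCNGGAA, and that at IL1F10, on the other strand, TTCCTNGAA, which is close to the core of the BCL6 element. Every match of these tighter forms is a match of TTCNNNGAA too, and both strands were searched. The inhibitor BCL6 interval that spans the IL1F10 start (chr2:113825497-113825599) had 3, 2 and 4, that at CEP162 (chr6:84937357-84937362) had 2, 2 and 2, and that at BANF2 (chr20:17680415-17680508) had 2, 2 and 2. The activator STAT5 intervals of IL1F10, CEP162 and BANF2 lay further upstream, with the edge of lower coordinate at -2737, -2923 and -2838 bp from the files' gene start. These promoters are therefore not places shared by both lists. Of 73 protein-coding inhibitor BCL6 genes with a treated interval in that window, none had one of each kind there. Among those with a promoter in the table, TTCNNNGAA was held by 5 of 39 genes in both lists (12.8%, exact 95% interval 4.3 to 27.4%). For genes in the inhibitor BCL6 list only it was 0 of 22 (0 to 15.4%). Both intervals include the 7.09% over all genes of the lists. The files' gene starts are of another build and annotation, so the match cannot be placed within the interval. Among the genes in both lists, 23 of 232 with a promoter in the table held TTCNNNGAA (9.91%, exact Clopper-Pearson 95% interval 6.39 to 14.5%). Among the genes in the inhibitor BCL6 list only it was 16 of 362 (4.42%, 2.55 to 7.08%), against 8.07% of 4376 promoters of genes in the activator STAT5 list only and 7.09% of 15049 over all genes of the lists. The intervals of the shared and the inhibitor BCL6 only genes overlap. For TTCCTNGAA it was 4 of 232 genes in both lists, 3 of 362 genes in the inhibitor BCL6 list only and 1.39% of all. For TTCCNGGAA it was 3 of 232, 4 of 362 and 1.24%. A match is a run of letters in the reference, not a site shown to be bound.

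The genes of the inhibitor BCL6 list were in the activator STAT5 list more often than other genes. The 638 shared genes were 37.7% of the inhibitor BCL6 genes (35.4 to 40.0%) and 5.05% of the activator STAT5 genes (4.67 to 5.44%). Over all gene IDs of the 4 lists 28.6% had an activator STAT5 interval and 3.83% an inhibitor BCL6 interval, and outside the inhibitor BCL6 list the activator STAT5 share was 28.3% (27.8 to 28.7%). Genes with a protein-coding symbol gave 254 of 663 (38.3%, 34.6 to 42.1%), against 30.1% of protein-coding genes outside the inhibitor BCL6 list. Over all protein-coding genes 30.4% had an activator STAT5 interval and 3.84% an inhibitor BCL6 interval. These intervals cover counting error only, and neighbouring genes that share an interval are not independent.

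The share was larger where the inhibitor BCL6 values were higher. With each library at its highest interval of the gene, 119 inhibitor BCL6 genes had a value of 3 or more in every library. Genes with several intervals meet this limit more easily. Of the 119, 59 were in the activator STAT5 list (49.6%, 40.3 to 58.9%). Of the 1574 genes at 2, the lowest value a treated list holds, in at least 1 library, 579 were (36.8%, 34.4 to 39.2%). Without the stretch of chromosome 2 from 30 to 75 Mb these shares were 46.9% of 96 (36.6 to 57.3%) and 34.5% of 1456 (32.1 to 37.1%), whose intervals just overlap.

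That stretch held 758 of all gene IDs (1.72%), 141 inhibitor BCL6 genes and 90 genes in both lists, which is 14.1% of those in both and stands beside 51 genes, or 4.83%, of those in the inhibitor BCL6 list only. Within it, 63.8% of inhibitor BCL6 genes (55.3 to 71.7%) were in the activator STAT5 list, against 58.0% of all its genes. Outside it, 548 of 1552 were (35.3%), against 27.8% of genes outside the inhibitor BCL6 list. The part of DNA copy number in this density was not tested. The share of inhibitor BCL6 genes exceeded that of all genes on 18 of 22 autosomes. Chromosome 2 as a whole stood at 56.0% of 250 inhibitor BCL6 genes against 34.5% of all its genes. That was the widest difference of any chromosome and wider than within the stretch. Chromosome 8 stood at 51.9% of 52 inhibitor BCL6 genes against 33.0% of all genes, and chromosome 11 at 44.3% of 122 against 36.6%. Chromosome 14 stood the other way, at 23.1% of 52 against 31.2%. Chromosome X had 4 inhibitor BCL6 genes, 0.281% of its 1422, and each of them was in that list only.

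**Figure D1:**
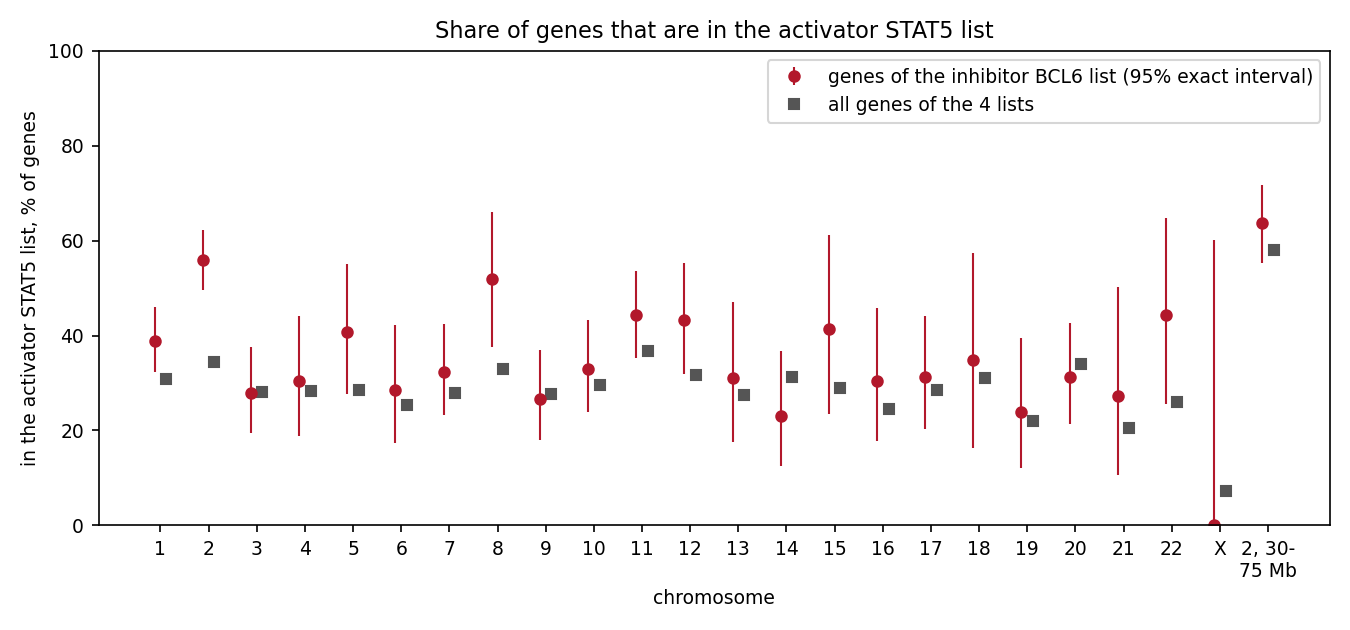
Percentage of genes with an activator STAT5 interval, by chromosome and for the stretch of chromosome 2 from 30 to 75 Mb, among inhibitor BCL6 genes (circles, with 95% exact binomial intervals) and among all genes of the 4 lists (squares). The chromosome 2 stretch had the highest pair of values, 63.8% and 58.0%, and most other intervals span the value of all genes.

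By overlap rather than by gene, 74 of 1652 inhibitor BCL6 intervals (4.48%, 3.53 to 5.59%) shared a base with an activator STAT5 interval. Of 14047 activator STAT5 intervals, 73 (0.520%) overlapped an inhibitor BCL6 one. The intervals were narrow, with median widths of 85 bp for inhibitor BCL6 and 142 bp for activator STAT5. The overlap expected from widths and windows alone was not computed, so these shares are not read as low or high. The shared bases came to 5064, or 3.06% of inhibitor BCL6 and 0.244% of activator STAT5 bases. The overlap had a median of 52 bp (range 3 to 239 bp). In 56 of the 74 pairs at least 50% of the shorter interval was shared, and in 35 the shorter lay whole inside the other. Neither treated list holds a base of a control peak of its own antibody, so the shared bases were in neither control list, which follows from how the lists were made. In 29 of the 74 pairs at least 1 interval abutted such a control peak, with no base between. The overlapping inhibitor BCL6 intervals were on a control STAT5 peak in 11 cases of 74 (14.9%), beside 23.7% of all inhibitor BCL6 intervals, a share held down by construction, since activator STAT5 intervals hold no base of a control STAT5 peak.

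Overlapping intervals had low values in nearly all libraries. Their medians were 2, 2 and 3 in inhibitor BCL6 libraries 6, 12 and 14 and 2 and 3 in activator STAT5 libraries 3 and 9. A value of 3 or more in every inhibitor BCL6 library was met by 9 of 74 (12.2%), beside 7.47% of the inhibitor BCL6 intervals at genes in both lists and 5.12% at genes of that list only. In every activator STAT5 library it was met by 20 of the 73 (27.4%), beside 21.1% of activator STAT5 intervals at genes in both lists and 16.7% at genes of that list only. No level of one antibody is read against the other here or at the genes that follow, because the depth of the libraries is unknown.

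Among protein-coding genes 34 had overlapping intervals. The widest were at E2F5, a cell cycle factor of the E2F family, and at a start shared by EMC6, a subunit of an endoplasmic reticulum insertase, and TAX1BP3, a PDZ protein, with 213 bp each. The E2F5 intervals began at -721 and -816 bp from the gene start and had 3, 2 and 2 for inhibitor BCL6 and 3 and 4 for activator STAT5. EMC6 and TAX1BP3 (chr17:3572580-3572858 and chr17:3572598-3572810) had 4, 2 and 7 for inhibitor BCL6 and 2 and 2 for activator STAT5, with library 14 highest. The same values stand for both genes because the pair lies within the window of both starts. HELLS, which codes for a chromatin remodeller needed for DNA methylation, shared 189 bp (chr10:96258314-96258515 and chr10:96258327-96258557), with 2, 2 and 6 for inhibitor BCL6 and 2 and 2 for activator STAT5. Again library 14 was the highest of the inhibitor BCL6 libraries.

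AKIP1, a protein kinase A binding protein gene, and ST5, which codes for a DENN domain protein, shared a pair of 174 bp (chr11:8932876-8933049 and chr11:8932834-8933052). It had 2, 2 and 3 for inhibitor BCL6 and 2 and 4 for activator STAT5. AKIP1 had 4 inhibitor BCL6 intervals and 3 activator STAT5 intervals in all, which makes it one of the more crowded starts. SPTLC3, a subunit of the serine palmitoyltransferase that starts sphingolipid synthesis, had the highest lowest value of the 15 genes with the widest overlaps. Its pair lay just past the gene start (chr20:12989741-12989863 and chr20:12989747-12989876), shared 117 bp and had 4, 3 and 6 for inhibitor BCL6 and 4 and 3 for activator STAT5. No library was at 2 there.

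The other 8 were RBM34, a gene of an RNA-binding protein (149 bp shared), IL1F10 (134 bp), ANTXR1, an anthrax toxin receptor (107 bp), THOC1 of the mRNA export complex THO (101 bp), PRR15 (100 bp), PAG1, an adaptor that recruits the kinase CSK (90 bp), the zinc finger gene ZNF215 (85 bp) and STX6, a Golgi SNARE (82 bp). Their values ran between 2 and 4 in every inhibitor BCL6 library and between 2 and 6 in the activator STAT5 libraries, with the 6 at ANTXR1 in library 9. ANTXR1 lies in the dense stretch of chromosome 2, and its intervals abut control peaks of their own antibody.

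**Figure D2:**
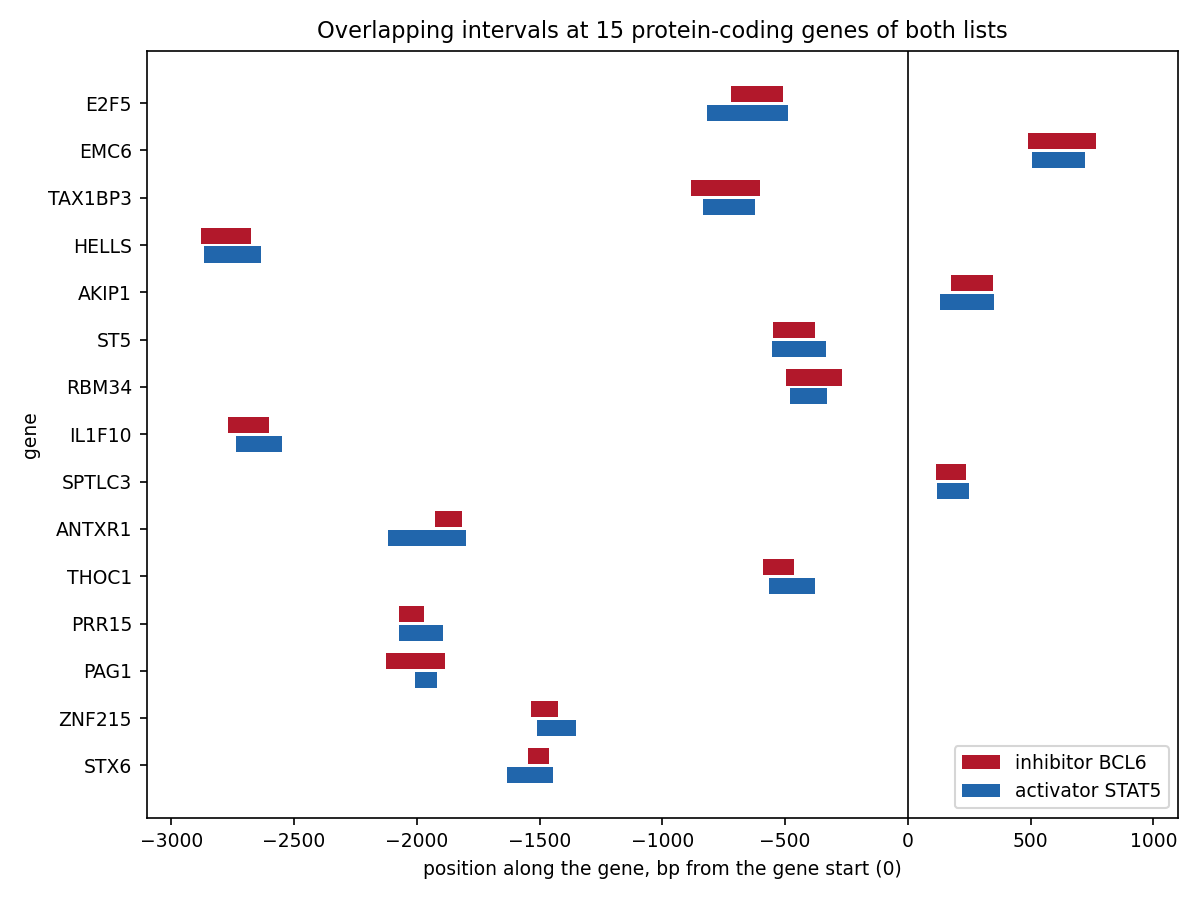
Position of the overlapping inhibitor BCL6 (upper bars) and activator STAT5 (lower bars) intervals along the 15 protein-coding genes with the most shared bases, in bp from the gene start. The intervals lay upstream of the start at all but EMC6, AKIP1 and SPTLC3.

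The gaps at shared genes are short by construction, since both lists keep to a window of 3000 bp upstream to 1000 bp downstream of the gene start and the nearest pair was taken. Over the 638 genes the gap between the nearest intervals, with an overlap counted as 0, had a median of 649 bp (95% interval by ranks 541 to 755 bp, quartiles 176 and 1448 bp) and reached 3619 bp. An overlap was found at 84 genes (13.2%), a gap of up to 100 bp at 46, of more but up to 200 bp at 49, up to 500 bp at 102, up to 1000 bp at 108, up to 2000 bp at 154 and of over 2000 bp at 95. At 389 genes (61.0%) the intervals thus overlapped or were within 1000 bp. Where these genes had a control interval, the nearest control peaks were closer. The inhibitor BCL6 interval had a median gap of 264 bp to control STAT5 peaks (583 genes) and 271 bp to control BCL6 peaks (554 genes). Those lists hold 68320 and 68393 intervals.

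**Figure D3:**
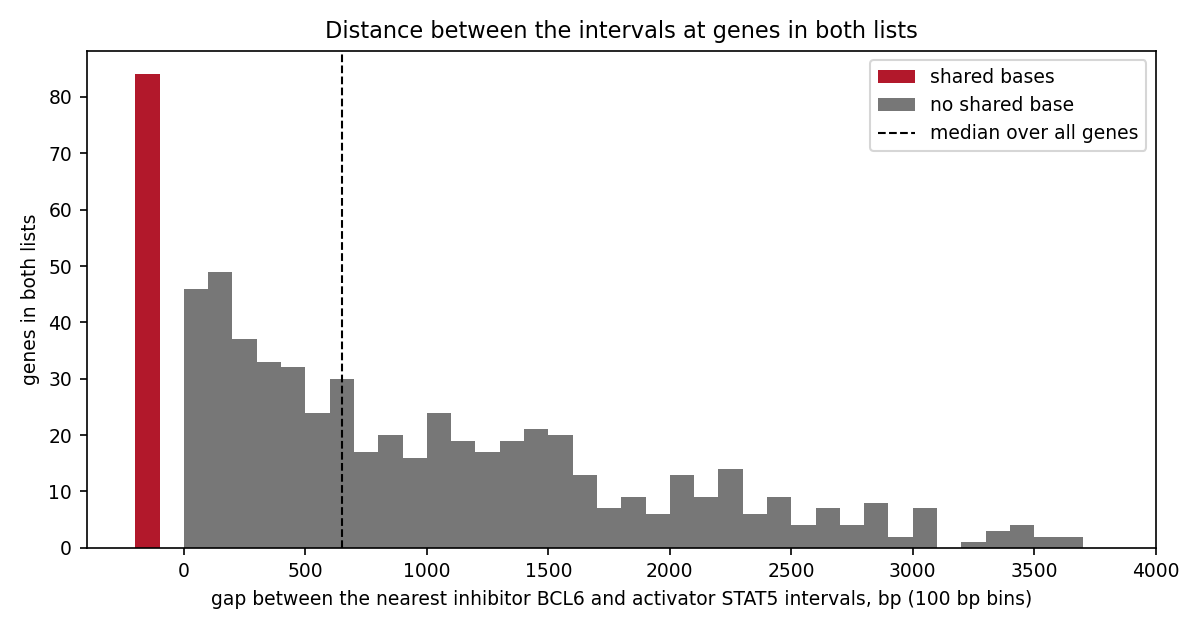
Number of genes in both lists by the gap between their nearest inhibitor BCL6 and activator STAT5 intervals, in 100 bp bins, with genes whose intervals share bases as a bar of their own at the left. The 84 genes with shared bases form the tallest bar, and the median over all 638 genes (dashed line) is 649 bp.

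The intervals of the antibodies were placed alike around the gene start. Both intervals were upstream at 405 genes (63.5%) and both downstream at 56. The inhibitor BCL6 interval was upstream and the activator STAT5 interval downstream at 100, and the reverse held at 77. The inhibitor BCL6 interval was further along the gene at 317 of 638 (49.7%, 45.7 to 53.6%). A second activator STAT5 interval was present at 172 genes in both lists (27.0%, 23.6 to 30.6%), beside 21.4% of all activator STAT5 genes, and a second inhibitor BCL6 interval at 64 (10.0%, 7.81 to 12.6%), beside 7.50% of all inhibitor BCL6 genes.

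Among protein-coding genes, the closest pair without a shared base was at C1orf54, with a gap of 6 bp. Next came the microtubule-binding protein gene EML6 with 16 bp, and DTL, whose protein hands replication factors to a ubiquitin ligase, with 19 bp. C1orf54 had 2, 5 and 5 for inhibitor BCL6 and 2 and 2 for activator STAT5. DTL (chr1:212206621-212206667 and chr1:212206583-212206601) had 4, 2 and 5 for inhibitor BCL6 and 3 and 4 for activator STAT5. BRAF, the kinase below RAS, followed with 26 bp (chr7:140623778-140623958 and chr7:140623593-140623751), inside the transcribed region. Its inhibitor BCL6 values were all 2, the lowest the list holds, and its activator STAT5 values 3 and 9. NDUFA8, a complex I subunit gene, also had 26 bp, with 5, 2 and 2 for inhibitor BCL6 and 3 and 2 for activator STAT5. DHX57, a helicase gene, and MORN2 shared a pair with a gap of 43 bp, with 3, 2 and 4 for inhibitor BCL6 and 4 and 18 for activator STAT5, whose libraries thus lay far apart. MAP2K3, a kinase that activates p38, had 60 bp, with 2, 2 and 3 for inhibitor BCL6 and 2 and 3 for activator STAT5. PDE4DIP, a centrosome and Golgi protein gene with close copies on chromosome 1, had 81 bp with 3, 2 and 9 for inhibitor BCL6 and 10 and 10 for activator STAT5, and reads of such copies could have been split or merged by the authors' counting. ENOPH1 of the methionine salvage pathway closed the 10 with 82 bp.

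**Figure D4:**
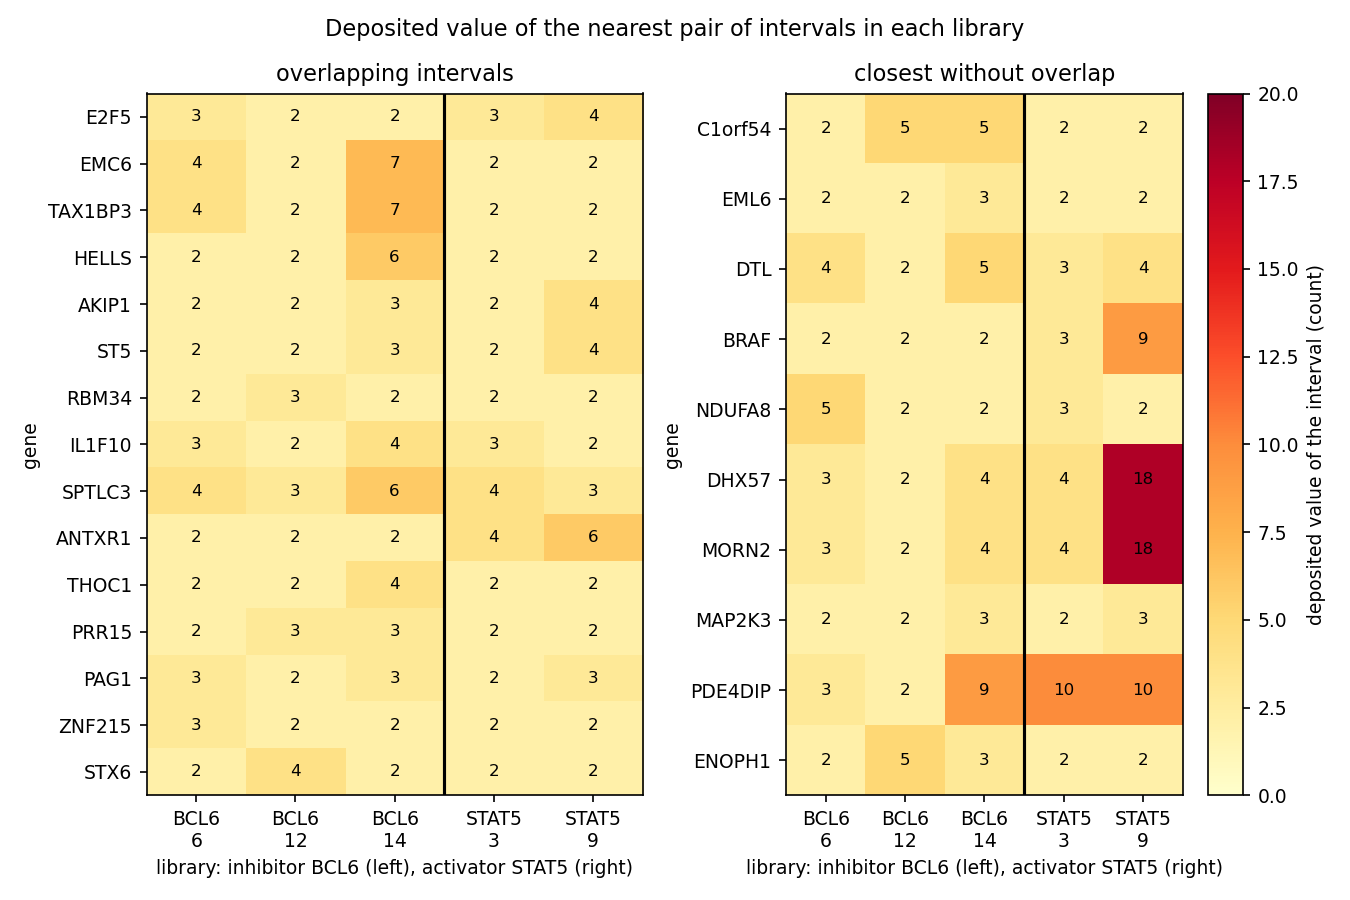
Deposited values (counts) of the nearest pair of intervals in inhibitor BCL6 libraries 6, 12 and 14 and activator STAT5 libraries 3 and 9, at the 15 protein-coding genes with the most shared bases (left) and the 10 with the smallest gap (right). Most cells are 2 to 4, and the highest is 18, at DHX57 and MORN2 in activator STAT5 library 9.

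High values in all 5 libraries were rare. With each library taken at its highest interval of the gene, FANK1, a gene active in testis, led the protein-coding genes with 4, 10 and 4 for inhibitor BCL6 and 15 and 12 for activator STAT5, and a gap of 92 bp. It is the only one of the 10 with no library under 4. NBPF1, of a family with many near-identical copies, had 11, 3 and 29 for inhibitor BCL6 and 7 and 10 for activator STAT5, and its count is uncertain for that reason. PIGF, a gene of GPI anchor synthesis, had 3, 5 and 6 for inhibitor BCL6 and 6 and 14 for activator STAT5. ZNF195, FBXO48, SPTLC3, APLF, FANCL, KRT26 and RASD2 each had 3 as their lowest value. Of these 10, PIGF, FBXO48, APLF and FANCL lie in the dense stretch of chromosome 2. APLF, a histone chaperone of DNA end joining, and FBXO48 have neighbouring starts and the same activator STAT5 interval (chr2:68694824-68695419) with 5 and 5, beside different nearest inhibitor BCL6 intervals.

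At 64 shared genes (10.0%, 7.81 to 12.6%) the inhibitor BCL6 interval overlapped a control STAT5 peak and the activator STAT5 interval a control BCL6 peak, 25 of them protein-coding. Taken singly, the overlap of inhibitor BCL6 with control STAT5 was found at 26.0% and that of activator STAT5 with control BCL6 at 34.5% of the shared genes, so that their joint share was near the product of these shares. The 10 with the highest summed values were PIGF, MDH1 (cytosolic malate dehydrogenase), PCYOX1, FANCL, DYNC2LI1, the ETS factor gene ELF1, the retinoic acid receptor gene RARG, RPS27A, ANKS1B and CLHC1. PIGF, MDH1, PCYOX1, FANCL, DYNC2LI1, RPS27A and CLHC1 are in the dense stretch, which leaves ELF1, RARG and ANKS1B outside it. RARG (chr12:53625567-53625635 and chr12:53626318-53626427) had 4, 2 and 3 for inhibitor BCL6 and 2 and 4 for activator STAT5 in the nearest pair, with 682 bp between. ELF1 had 2, 6 and 4 for inhibitor BCL6 and 2 and 2 for activator STAT5, with 788 bp between. The inhibitor BCL6 libraries spread by a factor of 2 or more at both genes.

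Genes of the pathways that the study concerns were about as frequent in the inhibitor BCL6 list as other genes. Of 546 genes in 19 lists of pathways and cell type markers, 20 were in it (3.66%, beside 3.83% of all genes), and 9 of these 20 were in both lists. LIFR, a receptor that signals through JAK and STAT, had a gap of 677 bp, with 3, 2 and 2 for inhibitor BCL6 and 2 and 3 for activator STAT5.

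FANCL codes for the E3 ligase that marks FANCD2 in Fanconi repair and had 2 intervals of each kind. Its nearest pair was 767 bp apart and had 2, 3 and 5 for inhibitor BCL6 and 2 and 2 for activator STAT5. The base excision repair glycosylase gene TDG had a gap of 171 bp, with 2, 2 and 2 for inhibitor BCL6 and 2 and 4 for activator STAT5. CCNE1, the cyclin E1 gene, had 3, 2 and 4 for inhibitor BCL6 and 3 and 2 for activator STAT5, with 898 bp between. In the WNT receptor gene FZD4 the gap was 1037 bp, with 2, 4 and 4 for inhibitor BCL6 and 5 and 3 for activator STAT5. CSMD3, a very long gene, had 1097 bp. E2F5 and BRAF, described above, were also of these lists.

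Among the genes in the inhibitor BCL6 list only were both JAK1 and JAK2, the kinases that phosphorylate STAT proteins. JAK1 (chr1:65431366-65431521, past the gene start) had 5, 2 and 2, and JAK2 (chr9:4983698-4983859, upstream) had 3, 2 and 4. Their nearest activator STAT5 intervals were 20523 and 122912 bp away, at other genes. With IL10RB, a receptor chain for interleukin-10, and LIFR, 4 of 47 members of the JAK-STAT list were in the inhibitor BCL6 list (8.51%, beside 3.83% of all genes) and 6 others in the activator STAT5 list only. In all, 14.9% of the JAK-STAT list had an activator STAT5 interval, beside 28.6% of all genes. RHOG, a small GTPase related to RAC1, was the 1 member of 47 in the RAC1 and PAK list, with 2, 2 and 2, on a control STAT5 peak. The BCL6 target list gave CD44, an adhesion receptor gene, with 2, 3 and 2. The cell cycle list gave CDKN2C, an inhibitor of cyclin D kinases, with 3, 2 and 3, and TFDP2, the E2F partner, with 2, 3 and 2. HRAS had 2, 3 and 2 at 3835 bp from an activator STAT5 interval. SLX4, a nuclease scaffold, the B cell receptor gene CD79A and CTNNA3 complete the 11, and 6 in CTNNA3 was the highest of their values. None of the 19 STAT5 targets listed was in the inhibitor BCL6 list, where a share of 3.83% would give fewer than 1, and 3 were in the activator STAT5 list (15.8%, beside 28.6% of all genes). The lists of nucleotide excision repair (23 members), mismatch repair (9), end joining (10), apoptosis (39) and corepressors (34) had no member in the inhibitor BCL6 list either. Nor had those of colon epithelium (22) and of fibroblast or endothelial markers (14). The lists do not hold every gene of a pathway. APLF, named above for end joining, was in the inhibitor BCL6 list but is no member of the end joining list. Beside 3.83% of all genes, lists of this size are too small for an absence to be read as a result. Such intervals do not measure expression, so markers do not test the cell type here.

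The genes in the inhibitor BCL6 list only lack an activator STAT5 interval in their window, so a long distance to one is built into their choice. Over the 1055 genes the nearest activator STAT5 interval was a median of 43833 bp away (quartiles 15196 and 115288 bp), beside 12620 bp over all 1652 inhibitor BCL6 intervals. Of the 1055 genes, 872 (82.7%) had none within 10 kb and 297 (28.2%) none within 100 kb. In 43 genes (4.08%) one lay within 3000 bp but outside the window of that gene. With each library at its highest interval of the gene, 60 of the 1055 had a value of 3 or more in every inhibitor BCL6 library (5.69%, 4.37 to 7.26%). Of the 638 genes in both lists 59 did (9.25%, 7.11 to 11.8%), so the intervals of these shares overlap slightly. These 60 and 59 genes are the same ones as in the shares by value above, counted the other way, so this is no separate observation. The inhibitor BCL6 intervals were at a midpoint within 500 bp of the start in 21.8% of listings at the 1055 genes and 22.1% at genes in both lists. They were on control STAT5 peaks in 23.5% of 996 and 23.9% of 656 intervals. In both respects the difference was smaller than the counting error.

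Of the 15 protein-coding genes with the highest lowest value, PIGBOS1, which codes for a mitochondrial microprotein, led with 5, 4 and 5 in libraries 6, 12 and 14. EHD1, of endocytic recycling, and the nuclear receptor coactivator gene NCOA5 followed with 4, 4 and 5 each. No library was under 4 in these 3 genes, and NCOA5 was 67505 bp from the nearest activator STAT5 interval and had no control BCL6 interval listed. STIP1, the co-chaperone that joins HSP70 to HSP90, had 7, 6 and 3, and NCAPD2, a condensin subunit gene, 6, 5 and 3. In these last 2 library 14 was the lowest, whereas at FAM136A it was the highest, with 3, 3 and 7. The FAM136A interval was 427 bp from an activator STAT5 interval that lay outside its window, and it abutted a control BCL6 peak. The other 9 were ANKRD53, CDKL4, NRIP3, PUS10 (a pseudouridine synthase), SIX2 (a homeobox factor of kidney progenitors), MRPL43 (a mitochondrial ribosomal protein), NELFE (a subunit of the factor that pauses RNA polymerase), MYADML2 and ZNF410. Each had 3 as its lowest value, with each library at its highest interval. SIX2 (chr2:45239509-45239532) had 4, 3 and 5 and NELFE (chr6:31928266-31928295) 4, 3 and 4. FAM136A, ANKRD53, CDKL4, PUS10 and SIX2 lie in the dense stretch of chromosome 2.

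**Figure D5:**
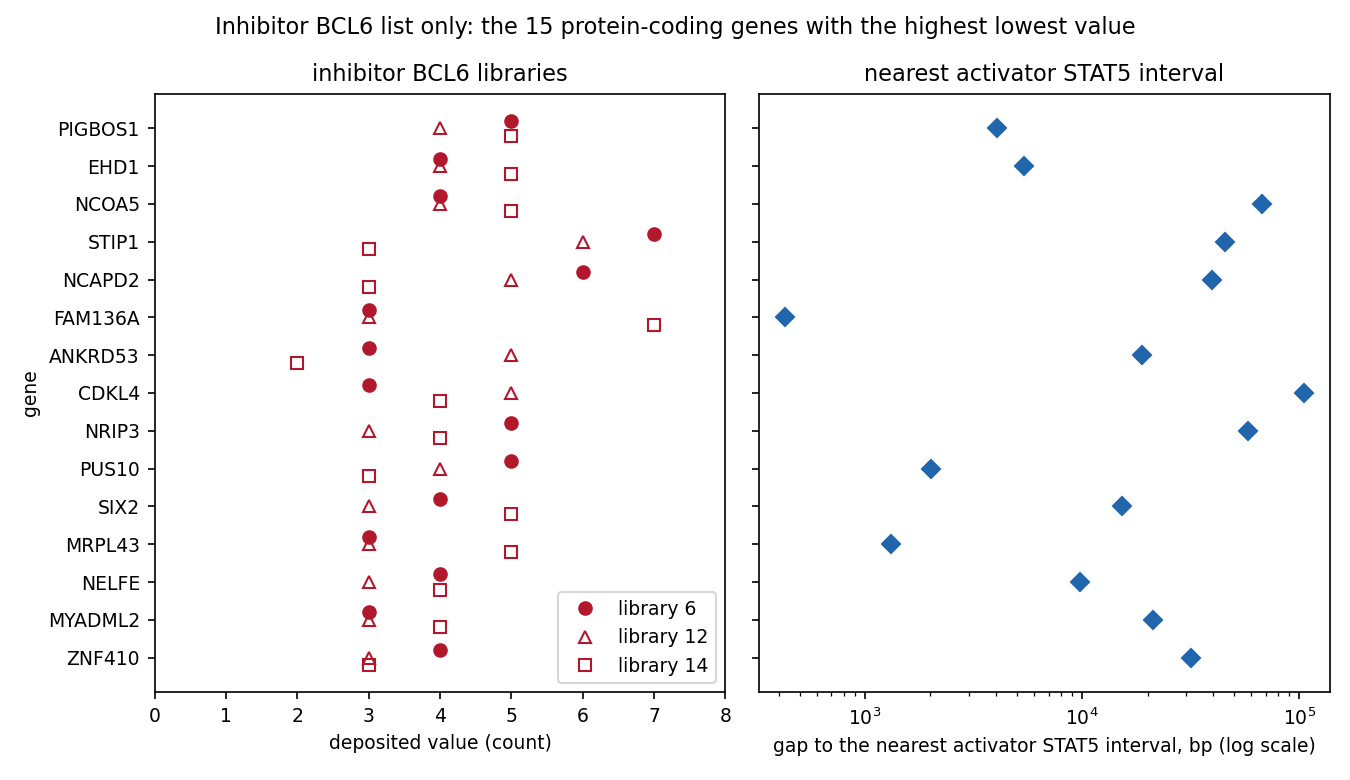
Left, deposited values (counts) in the 3 inhibitor BCL6 libraries at the 15 protein-coding genes of that list only with the highest lowest value, 1 interval per gene. Right, gap in bp (log scale) from that interval to the nearest activator STAT5 interval, which ran between 427 bp at FAM136A and 104955 bp at CDKL4.

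Gene classes were split between the sets much as all genes were. Protein-coding symbols made up 38.8% of the genes in the inhibitor BCL6 list only and 39.8% of those in both lists, beside 39.0% of all. Antisense RNA genes had 17 of 31 inhibitor BCL6 genes in both lists (54.8%), and olfactory receptor genes 10 of 21 (47.6%). ZNF genes had 6 of 21 (28.6%), LINC genes 10 of 33 (30.3%) and 7SK RNA genes 1 of 8. No histone gene of 59 was in the inhibitor BCL6 list, beside 3.83% of all genes, and 21 were in the activator STAT5 list (35.6%, beside 28.6% of all genes). With so few genes in a class none of the shares in both lists was read as different from 37.7%. The histone counts were not read as a difference either. A control STAT5 interval was present at 89.0% of genes in the inhibitor BCL6 list only (87.0 to 90.8%) and 91.4% of genes in both lists (88.9 to 93.4%), both above the 86.1% of all genes (85.8 to 86.5%). A control BCL6 interval was present at 87.1% (84.9 to 89.1%) and 86.8% (84.0 to 89.4%) of them, beside 85.8% of all.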

How the data were processed

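Per the submitters' processing notes, the tools were CASAVA 1.8.2 and Bowtie 0.12.7, on GRCh37. Intervals were called with a tool not given in the sources used here. For them the authors' deposited lists give, for each interval between 3000 bp upstream and 1000 bp downstream of an Ensembl gene start, 1 whole-number value per library, its width in bp and its distance in bp from that start. The deposited header does not say what the value is. It was taken as the authors' count of reads per peak and library, not normalized, since every value is a whole number of 0 or at least 2. A treated list takes an interval with at least 2 in every library, and 1 peak can lend its value to several neighbouring intervals. The depth of the libraries is unknown, since the sum of values near gene starts is no depth.

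Library columns were matched to samples by condition and library number. An interval listed for several genes was counted once among intervals. Gaps are the bases between nearest edges, the nearest pair was taken per gene, and overlap needed 1 bp. Each treated list is 1 merged set, so memberships are described with 95% binomial intervals (Clopper-Pearson, counting error alone), and no test was made. Symbol classes came from RefSeq gene tables by symbol, and 24808 IDs matched by symbol and 1401 by an older one, of 44178. Promoters and mature microRNAs are RefSeq's.

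The named genes are those with a protein-coding symbol that had the most shared bases (15), the smallest gap (10), the highest lowest value over 5 libraries (10), both intervals on control peaks of the other antibody (10), or, for the inhibitor BCL6 list only, the highest lowest value (15), with every pathway list member in the inhibitor BCL6 list, of which 1 is not reported here. IL1F10, CEP162 and BANF2 promoters, the microRNAs and the chromosomes named were chosen after their values were seen. Members and lists were chosen with earlier results of these data known. Interval routines were tested on simulated data. Python 3.11.15, pandas 2.3.3, numpy 2.4.6, scipy 1.17.1 and matplotlib 3.10.9 were used. Libraries of activator BCL6 and inhibitor STAT5 were not used here.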

Additional observations from a re-analysis of the deposited data

How the results depend on the processing

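The share of inhibitor BCL6 genes in the activator STAT5 list was above that of other genes under all 9 alternatives that keep every library. It was 19.1% against 5.65% with values of at least 3 in every library, 33.9% against 24.4% for intervals of at least 50 bp, 25.5% against 18.2% within 1000 bp of the gene start, 29.0% against 23.8% without intervals that abut a control peak of their own antibody, and 35.3% against 27.8% without the chromosome 2 stretch. By those same settings, in that order without the last, genes in both lists numbered 21, 412, 214 and 421, and overlapping inhibitor BCL6 intervals 6, 51, 38 and 45.

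By gene symbol in place of the Ensembl ID 359 genes were in both lists and 606 in the inhibitor BCL6 list only, and with protein-coding symbols 254 and 409. The inhibitor BCL6 list only held 89 genes at values of at least 3 and 626 within 1000 bp. The median gap was 433 bp (21 genes) at values of at least 3, 256 bp within 1000 bp, 771 bp between midpoints and 892 bp over all pairs. Within 200 bp, 161 inhibitor BCL6 intervals had an activator STAT5 interval. These counts fall with the number of intervals kept.

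Values of at least 3 in the libraries that remain gave 42, 49 and 28 genes in both lists without inhibitor BCL6 library 6, 12 or 14 and 36 and 27 without activator STAT5 library 3 or 9, beside 21 with none left out. Over these 5 settings 74 to 270 genes were in the inhibitor BCL6 list only, the share was 13.5 to 32.7% (other genes 5.61 to 14.6%), 7 to 9 intervals overlapped and the median gap was 360 to 511 bp. Alternatives added after seeing the data, without values of 20 or more, with each pair once, and with only genes that have a control interval, kept each value within its limits (37.5 and 37.6% shared, 672 bp by pair). No paired analysis was possible because the library numbers do not pair samples across groups and the result comes from no test.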
